A study of Mus musculus with 20 samples.

Results

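The glycans of the Lewis X and Lewis Y family carry a fucose joined α1-3 to an N-acetylglucosamine. They were picked from 419 printed compounds by the text of their structure, as those that hold Fucα1-3 on GlcNAc and no Fucα1-4, branching (Fucα1-2), sulfate or sialic acid, and 10 of the 419 met this rule. A further 9 compounds hold the same fucose but were left out by those exclusions. Binding of serum antibodies to them was measured in inbred BALB/c mice, 10 weeks old and kept specific pathogen free. The deposited arrays came from 13 females and 7 males, with 1 serum, diluted 1:15, on each array. IgM and IgG were detected together, so a signal does not tell the isotypes apart, nor a larger amount of antibody from tighter binding. The mice were of 1 strain and 1 age, the labels name no treatment, and the only groups are the sexes.

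Lewis X is a trisaccharide in which galactose and fucose are both attached to 1 N-acetylglucosamine. It is also known as stage-specific embryonic antigen 1 and CD15, and is carried by early embryonic cells of the mouse and by granulocytes in humans. Lewis Y bears an additional fucose on the galactose, the same α1-2 fucose that makes the H antigen of blood group O. When a sialic acid caps Lewis X, the product is sialyl Lewis X, a ligand of selectins, the adhesion proteins that slow leukocytes on vessel walls. Free oligosaccharides of human milk present the same motifs on branched lactose-based cores. Natural antibodies are those found in serum without deliberate immunization, and many of them bind carbohydrates.

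The structures are written from the outermost sugar to the spacer that links them to the slide, with a and b for α and β, and sp3 and sp4 are the propylamine and the glycyl spacer. They are shown because the comparisons turn on single sugars that these compounds gain or lose.
Fucosyl-GlcNAc disaccharide: Fuca1-3GlcNAcb-sp3
Lewis X: Galb1-4(Fuca1-3)GlcNAcb-sp3
αGalLeX: Gala1-3Galb1-4(Fuca1-3)GlcNAcb-sp3
αGalNAcLeX: GalNAca1-3Galb1-4(Fuca1-3)GlcNAcb-sp3
Lewis Y: Fuca1-2Galb1-4(Fuca1-3)GlcNAcb-sp3
β-fucose analog of Lewis Y: Fucb1-2Galb1-4(Fuca1-3)GlcNAcb-sp3
LeY(hexa): Fuca1-2Galb1-4(Fuca1-3)GlcNAcb1-3Galb1-4Glcb-sp4
MFLNH III: Galb1-4(Fuca1-3)GlcNAcb1-6(Galb1-3GlcNAcb1-3)Galb1-4Glcb-sp4
DFLNH (a): Galb1-4(Fuca1-3)GlcNAcb1-6(Fuca1-2Galb1-3GlcNAcb1-3)Galb1-4Glcb-sp4
MF(1-3)iLNO: Galb1-3GlcNAcb1-3Galb1-4(Fuca1-3)GlcNAcb1-6(Galb1-3GlcNAcb1-3)Galb1-4Glcb-sp4

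Signals are given in relative fluorescence units (RFU), taking the median of 6 replicate spots on an array, and values over mice as median ± median absolute deviation (MAD). A mouse was counted as binding a glycan at 4000 RFU or more. The MAD of the 6 spots of an array, as a percentage of their median, had a median over mice of 22.8% for MF(1-3)iLNO to 36.0% for Lewis Y. The arrays of the females BALB/c-44 and BALB/c-45 hold the same value in 2664 of 2664 spots, while no other arrays share more than 17, so they were counted as 1 mouse and 19 mice remained, 12 females and 7 males. The arrays fell into a dimmer set of 9, with array medians of 126.5 to 411.5 RFU (7 females and 2 males), and a brighter set of 10, with 603 to 1504.5 RFU (5 females and 5 males). The ratio of 2 printed compounds that are not glycans parts these sets, which were recognised from the values and are not groups of the study. The printing buffer itself gave 93.5 to 2044.5 RFU, with a median of 577.5 RFU, and for each of the 10 glycans the number of mice at or below the buffer of their own array is given. The printed density of the compounds was not analysed here, and a difference in signal between compounds cannot be told apart from a difference in density or, where it differs, in spacer.

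Lewis X was the one glycan of the family that most mice bound. Binding in 1 or more of the 19 mice was seen for 8 of the 10 glycans, against 54.9% of all 419 compounds. Binding in 4 or more mice was seen for 6 of the 10, against 22.4% of all compounds. Lewis X alone was bound in at least 10 mice and had a median at or above 4000 RFU, and each of these criteria was met by 8.11% of all compounds. The median of the 10 medians was 921.5 RFU, beside 635.5 RFU over all compounds.

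**Figure D1:**
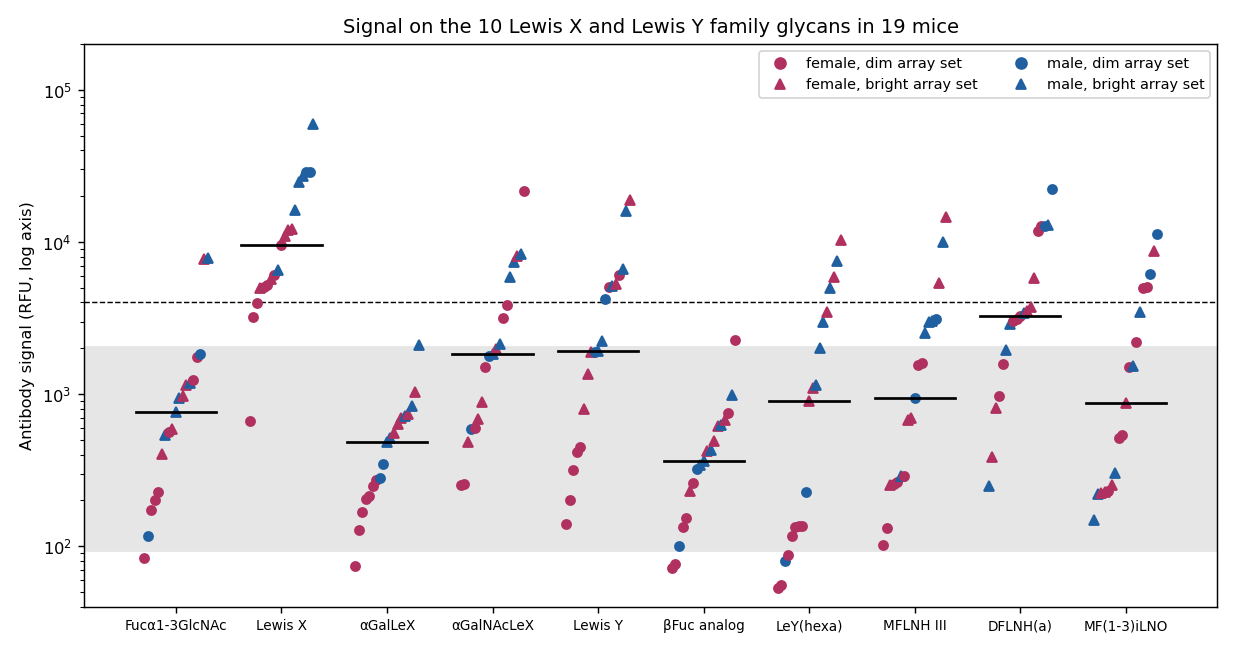
Antibody signal in RFU (log axis) of each of 19 mice on the 10 glycans. Points are mice, coloured by sex and shaped by array set, black bars are medians, the dashed line is 4000 RFU and the grey band is the range of the buffer spots. Lewis X has its median at 9477 RFU, above the line, and the medians of the other 9 glycans lie below it.

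The disaccharide Fucα1-3GlcNAc, Lewis X without its galactose, ran from 84 to 7845 RFU with a median of 767 ± 466 RFU. It was bound in 2 of 19 mice (10.5%, exact binomial 95% interval 1.30 to 33.1%), female BALB/c-88 at 7719 RFU and male BALB/c-104 at 7845 RFU. In 9 mice it did not exceed the buffer of that array. The pair of sera that bound it stood apart, since the next highest mouse had 1833 RFU.

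Lewis X ran from 661 to 59869 RFU with a median of 9477 ± 4477 RFU, and ranked 17 by median among the 419 compounds. It was bound in 16 of 19 mice (84.2%, interval 60.4 to 96.6%) and was at or below buffer in 0 of 19. Within single mice its rank among the 419 compounds ran from 13 to 89, with a median of 34. The lowest mouse was the female with the duplicated array, BALB/c-44/45, at 661 RFU, and the females BALB/c-19 and BALB/c-20 also stayed under the threshold, at 3232 and 3995 RFU. All of these were on dimmer arrays, where Lewis X was bound in 6 of 9 mice with a median of 5231 RFU. On the brighter arrays it was bound in 10 of 10 mice with a median of 12070 RFU. Spots of BALB/c-20 ran from 17 to 12276 RFU, and those of BALB/c-17, counted as bound at 5051.5 RFU, from 13 to 19246 RFU. Calls near the threshold are therefore uncertain. The highest mouse was male BALB/c-48, and 9 of the 114 Lewis X spots held saturated pixels, so that the brightest values are less certain. Among the 10 glycans Lewis X was the brightest in 13 of 19 mice.

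The 2 capped forms of Lewis X differed from each other. αGalLeX, which ends in the Galα1-3Gal unit that mice make on their own cells, ran from 74.5 to 2108 RFU with a median of 484 ± 238 RFU. It was bound in 0 of 19 mice, which allows a share of up to 17.6% (exact binomial), and was at or below buffer in 12. αGalNAcLeX ran from 252 to 21548 RFU with a median of 1839 ± 1317 RFU, with binding in 5 of 19 mice (26.3%, interval 9.15 to 51.2%), and was at or below buffer in 2. The 5 mice were of both sexes, with 8129 and 21548 RFU in females BALB/c-90 and BALB/c-44/45 and 5924, 7337 and 8362 RFU in males BALB/c-53, BALB/c-107 and BALB/c-106. Of these, 4 were on brighter arrays and 1, BALB/c-44/45, on a dimmer one. Its spots ran from 5519 to 45618 RFU. Mouse BALB/c-44/45 thus had the lowest signal of all mice on Lewis X and the highest on αGalNAcLeX, where the glycan ranked 8 of the 419 compounds.

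Lewis Y ran from 139.5 to 18856 RFU with a median of 1922 ± 1720 RFU. It was bound in 8 of 19 mice (42.1%, interval 20.3 to 66.5%), 4 females and 4 males, and was at or below buffer in 1. The 8 mice that bound it were all among the 16 of 19 that bound Lewis X. The same held for the mice that bound the disaccharide, LeY(hexa) or MFLNH III. The analog of Lewis Y with β-fucose ran from 72.5 to 2255 RFU with a median of 364.5 ± 231.5 RFU, with binding in 0 of 19 mice (up to 17.6%), and was at or below buffer in 16. Its highest value, in female BALB/c-20, stood alone, since the next mouse had 990.5 RFU.

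LeY(hexa) carries the Lewis Y tetrasaccharide on lactose and the sp4 spacer. It ran from 53 to 10305 RFU with a median of 906.5 ± 827 RFU, with binding in 4 of 19 mice (21.1%, interval 6.05 to 45.6%), the females BALB/c-65 and BALB/c-88 and the males BALB/c-53 and BALB/c-104. It was at or below buffer in 10. Its median fell between the array sets, and was 567 RFU on leaving out any of 9 of the 10 mice on brighter arrays. On the dimmer arrays it had 53 to 227 RFU and on the brighter ones 906.5 to 10305 RFU, with no overlap. αGalLeX was likewise parted, with 74.5 to 349.5 RFU on the dimmer and 484 to 2108 RFU on the brighter arrays. These 2 of the 10 glycans compare with 20.0% of all compounds for which the brighter set lay wholly above the dimmer set. Mice BALB/c-53, BALB/c-88 and BALB/c-104 bound both Lewis Y compounds, 5 bound only the tetrasaccharide and mouse BALB/c-65 bound only LeY(hexa), with 802 RFU on Lewis Y and 5872 RFU on LeY(hexa).

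The 3 milk oligosaccharides carry the α1-3 fucose on the 6-branch of a lacto-N-hexaose type core, at the end of the branch or, in MF(1-3)iLNO, inside it. MFLNH III ran from 102.5 to 14545 RFU with a median of 936.5 ± 684.5 RFU, with binding in 3 of 19 mice (15.8%, interval 3.38 to 39.6%), and was at or below buffer in 5. DFLNH (a), which has an additional α1-2 fucose on the 3-branch, ran from 249.5 to 22407 RFU with a median of 3263 ± 2298 RFU, with binding in 6 of 19 mice (31.6%, interval 12.6 to 56.6%), and was at or below buffer in 2. It had the second highest median of the family and ranked 42 among all compounds.
MF(1-3)iLNO, in which the fucosylated branch is extended by a further Galβ1-3GlcNAc unit, ran from 149 to 11335 RFU with a median of 879 ± 658.5 RFU, with binding in 5 of 19 mice (26.3%, interval 9.15 to 51.2%), and was at or below buffer in 8. DFLNH (a) and MF(1-3)iLNO were both bound by mice BALB/c-20, BALB/c-42, BALB/c-56 and BALB/c-82, all on dimmer arrays. MFLNH III was bound by mice BALB/c-48, BALB/c-65 and BALB/c-90, all on brighter arrays. The medians of DFLNH (a) were 3263 RFU on the dimmer and 3165 RFU on the brighter arrays, and those of MF(1-3)iLNO 2187 and 279 RFU. These were the 2 glycans of the 10 with a higher median on the dimmer arrays, which held for 5.97% of all compounds.

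**Figure D2:**
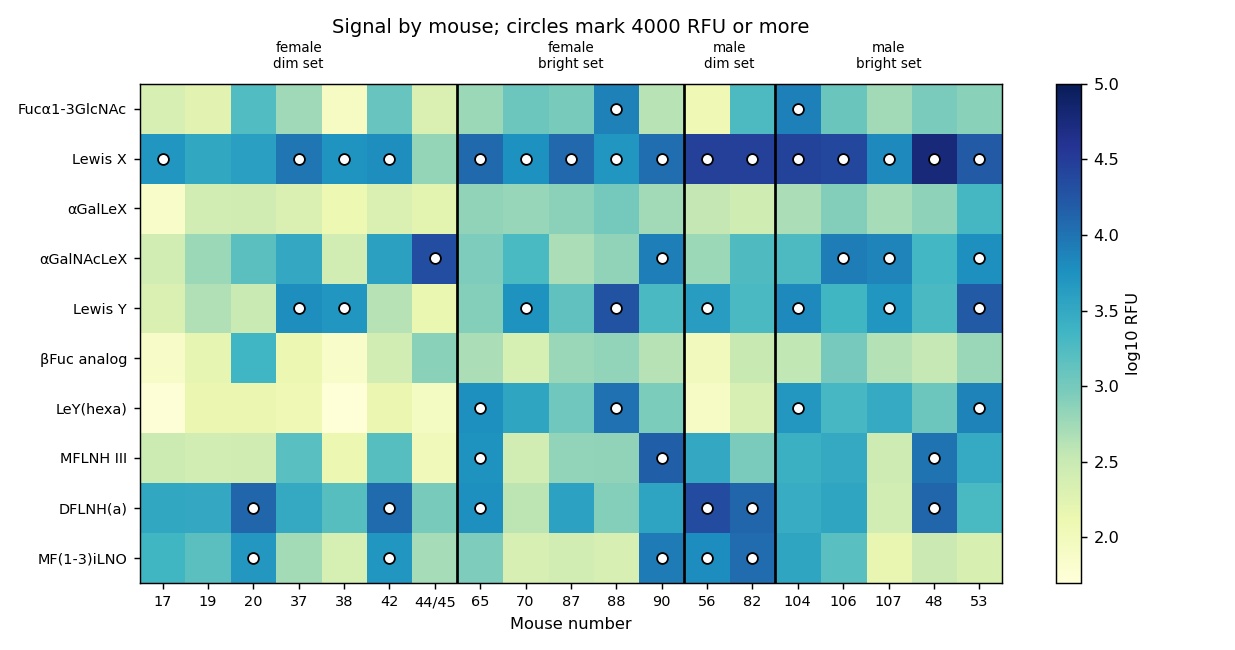
Signal of each glycan (rows) in each mouse (columns, by mouse number, sex and array set) as log10 RFU on a colour scale. White circles mark the 49 of 190 values at or above 4000 RFU, which fall on Lewis X in 16 mice and on different further glycans from mouse to mouse.

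Individual mice differed in which glycans of the family they bound. Of the 190 values, 49 were at or above 4000 RFU, 16 of them on Lewis X, and the number of the 10 glycans bound per mouse ran from 0 to 4 with a median of 3. The share of such values over all 419 compounds was not computed, so these counts do not set the family apart from the whole array. The number bound was 0 to 4 with a median of 2 in females and 2 to 4 with a median of 3 in males. By array set, it was 0 to 4 (median 2) on the dimmer arrays and 1 to 4 (median 3.5) on the brighter ones. Mouse BALB/c-19 bound 0 of the 10 glycans and 2 mice bound Lewis X only. Over the 19 mice there were 14 different sets of bound glycans, some of which rest on signals near 4000 RFU. The brightest glycan of the family was αGalNAcLeX in 2 mice, DFLNH (a) in 2, Lewis Y in 1 and MFLNH III in 1 of the mice where it was not Lewis X.

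To set side by side the signals on glycans that differ by a named change in structure, 29 pairs of compounds were compared within mice on log2 RFU, with values set to at least 100 RFU. A difference in log2 RFU of 1 is a doubling of the signal. The signs of the 19 within-mouse differences were flipped 100000 times for a two-sided permutation test, and p-values were adjusted over the 29 pairs, of which 26 passed an adjusted p of 0.05. Because many signals lie at the level of the buffer, each pair was also compared with signals raised to the buffer median of their array, and 24 then passed. A difference from a compound at or below buffer in most mice is a difference from background, and its size depends on this setting. For 9 of the 29 pairs the raised value differed by more than 1.5 times as a fold, and it is printed beside each of these.

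**Figure D3:**
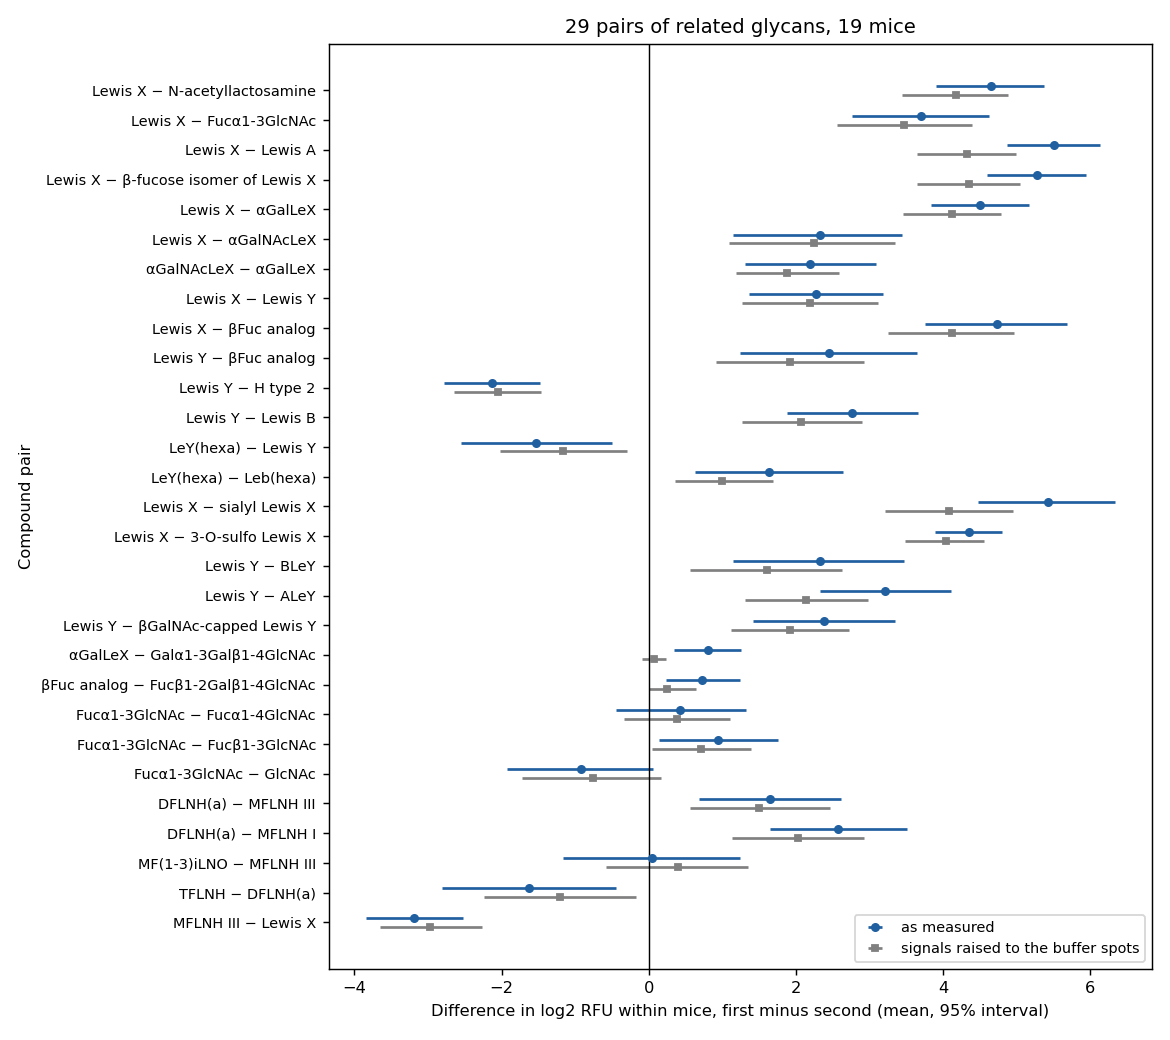
Mean difference in log2 RFU within mice, first minus second compound, with its 95% interval, for the 29 pairs over 19 mice. Circles are values as measured and squares are values with signals raised to the buffer spots. All 10 pairs that open with Lewis X lie to the right of 0, between 2.28 and 5.50, while Lewis Y lies below H type 2.

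Lewis X was brighter than each of the 10 related compounds set after it in these pairs, by 2.28 to 5.50 on the log2 scale, and by 2.19 to 4.35 with signals raised to the buffer. N-acetyllactosamine, its backbone without fucose, had 340 ± 146.5 RFU, with binding in 0 of 19 mice, and was at or below buffer in 11. It was dimmer than Lewis X by 4.64 as measured (interval 3.90 to 5.37, 19 of 19 mice, adjusted p = 2.42e-05, which rests on the smallest p that the sign flips can give) and by 4.17 with signals raised to the buffer. The isomer with β-fucose in the same place was dimmer than Lewis X by 5.27 (interval 4.59 to 5.94, 19 of 19 mice, adjusted p = 2.42e-05). It was at or below buffer in 18 of 19 mice, and the difference was 4.35 with signals raised to the buffer. Lewis A, in which galactose and fucose exchange their positions, was dimmer by 5.50 (interval 4.87 to 6.12, 19 of 19 mice, adjusted p = 2.42e-05) and had a highest value of 633 RFU. It was at or below buffer in 16 of 19 mice, and the raised difference was 4.32. The disaccharide, which lacks the galactose of Lewis X, was dimmer by 3.69 (interval 2.76 to 4.62, 18 of 19 mice, adjusted p = 4.46e-05). The exception was mouse BALB/c-88, with 7719 RFU on the disaccharide and 5000 RFU on Lewis X. In that mouse the spots overlapped, from 6584 to 15557 RFU on the disaccharide and from 2804 to 13708 RFU on Lewis X.

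Compounds with an addition to the galactose of Lewis X were all dimmer than Lewis X itself. αGalLeX was dimmer by 4.50 (interval 3.83 to 5.17, 19 of 19 mice, adjusted p = 2.42e-05), and the 3-O-sulfated form by 4.35 (interval 3.89 to 4.80, 19 of 19 mice, adjusted p = 2.42e-05). Sialyl Lewis X was dimmer by 5.42 (interval 4.47 to 6.33, 18 of 19 mice, adjusted p = 2.42e-05), and the exception was mouse BALB/c-106, the single mouse that bound it, with 30433 RFU on sialyl Lewis X and 24766 RFU on Lewis X. Sialyl Lewis X was at or below buffer in 17 of 19 mice, and the raised difference was 4.08. For αGalNAcLeX the mean difference was 2.32 (interval 1.14 to 3.44, 17 of 19 mice, adjusted p = 0.0017), and the exceptions were mice BALB/c-44/45 and BALB/c-107. In BALB/c-107 the spots overlapped, from 3574 to 10136 RFU on αGalNAcLeX and from 5277 to 12929 RFU on Lewis X.
The caps of αGalNAcLeX and αGalLeX differ only in being GalNAc or galactose, and αGalNAcLeX was the brighter by 2.18 (interval 1.30 to 3.08, 17 of 19 mice, adjusted p = 9.67e-05). αGalLeX and the same trisaccharide without fucose, Galα1-3Galβ1-4GlcNAc, differed by 0.80 as measured (interval 0.35 to 1.26, adjusted p = 0.0022). With signals raised to the buffer it was 0.07 (interval -0.09 to 0.24, adjusted p = 0.42), and both were bound in 0 of 19 mice.

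Lewis Y was compared with the compounds that lack 1 of its fucoses or carry it in another position. It was dimmer than Lewis X by 2.28 (interval 1.36 to 3.18, 18 of 19 mice, adjusted p = 0.00022), and mouse BALB/c-88 was again the exception, with 18856 RFU on Lewis Y. It was also dimmer than H type 2, which has the α1-2 fucose alone, by 2.13 (interval 1.48 to 2.79) in 19 of 19 mice (adjusted p = 2.42e-05). H type 2 had 8719 ± 4997 RFU, with binding in 16 of 19 mice.

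Isomers and capped forms of Lewis Y were dimmer than Lewis Y. The β-fucose analog was dimmer than Lewis Y by 2.45 (interval 1.24 to 3.64, 17 of 19 mice, adjusted p = 0.0014), and dimmer than Lewis X by 4.73 (interval 3.75 to 5.68, 18 of 19 mice, adjusted p = 2.42e-05), or 4.11 with signals raised to the buffer. It exceeded its own backbone without the α1-3 fucose, Fucβ1-2Galβ1-4GlcNAc, by 0.72 (interval 0.23 to 1.24, adjusted p = 0.0014), and by 0.24 when signals were raised to the buffer (adjusted p = 0.28). Lewis B, the type 1 isomer, was dimmer than Lewis Y by 2.77 (interval 1.88 to 3.66, 19 of 19 mice, adjusted p = 2.42e-05). It was at or below buffer in 16 of 19 mice, and the raised difference was 2.07.
Among the capped forms, the signal was lower than on Lewis Y by 2.32 for BLeY, with Galα1-3 (interval 1.14 to 3.47, 17 of 19 mice, adjusted p = 0.0015), by 3.21 for ALeY, with GalNAcα1-3 (interval 2.32 to 4.10, 18 of 19 mice, adjusted p = 2.42e-05), and by 2.38 for GalNAcβ1-3 (interval 1.42 to 3.34, 17 of 19 mice, adjusted p = 9.67e-05). BLeY was nevertheless bound in 3 of 19 mice, up to 35431 RFU, whereas ALeY reached 529.5 RFU at most. They were at or below buffer in 14 and 18 of 19 mice, and with signals raised to the buffer the differences were 1.60 for BLeY and 2.14 for ALeY. The difference of Lewis X and αGalNAcLeX (2.15, exact sign-flip permutation test, adjusted p = 0.095) and that of Lewis Y and its β-fucose analog (1.90, adjusted p = 0.13) did not pass on the 9 dimmer arrays alone, nor that of Lewis Y and BLeY on the 10 brighter ones (1.82, adjusted p = 0.072).

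The longer Lewis Y compound differs from the shorter in its lactose extension and in its spacer, which cannot be told apart here. LeY(hexa) was dimmer by 1.53 over all mice (interval 0.50 to 2.55, brighter in 1 of 19, adjusted p = 0.0033). The difference was 2.88 on the dimmer arrays (exact sign-flip permutation test, adjusted p = 0.0071) and 0.32 on the brighter ones (adjusted p = 0.49). Against its type 1 counterpart, Leb(hexa), LeY(hexa) was brighter by 1.63 (interval 0.63 to 2.64, adjusted p = 0.0039), or by 1.00 with signals raised to the buffer, which Leb(hexa) did not exceed in 18 of 19 mice. The sets were opposed in this pair, with LeY(hexa) brighter in 10 of 10 mice and by 3.34 on the brighter arrays (adjusted p = 0.0047), and in 1 of 9 mice on the dimmer arrays, where the mean difference was -0.27 (exact sign-flip permutation test, adjusted p = 0.021). On those dimmer arrays LeY(hexa) did not exceed 227 RFU and lay below the buffer of its own array in each mouse. Its difference from Lewis Y there is therefore one from background, and its difference from Leb(hexa) is one between signals near background.

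At the disaccharide level, differences were small and rested on few sera. Fucα1-3GlcNAc and its isomer Fucα1-4GlcNAc differed by 0.43 (interval -0.45 to 1.31, the first brighter in 9 of 19 mice, adjusted p = 0.34), which leaves room for a difference in either direction. The isomer with β1-3 fucose was dimmer than Fucα1-3GlcNAc by 0.94 (interval 0.14 to 1.75, 11 of 19 mice, adjusted p = 0.027), a call that was lost when any of mice BALB/c-20, BALB/c-42, BALB/c-82, BALB/c-88 or BALB/c-104 was left out (highest adjusted p = 0.054). N-acetylglucosamine alone was the brighter by 0.92 (interval -0.06 to 1.92), with the disaccharide brighter in 6 of 19 mice (adjusted p = 0.072). Leaving out mouse BALB/c-82, BALB/c-88 or BALB/c-104 brought that pair past the threshold, down to an adjusted p of 0.026.

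**Figure D4:**
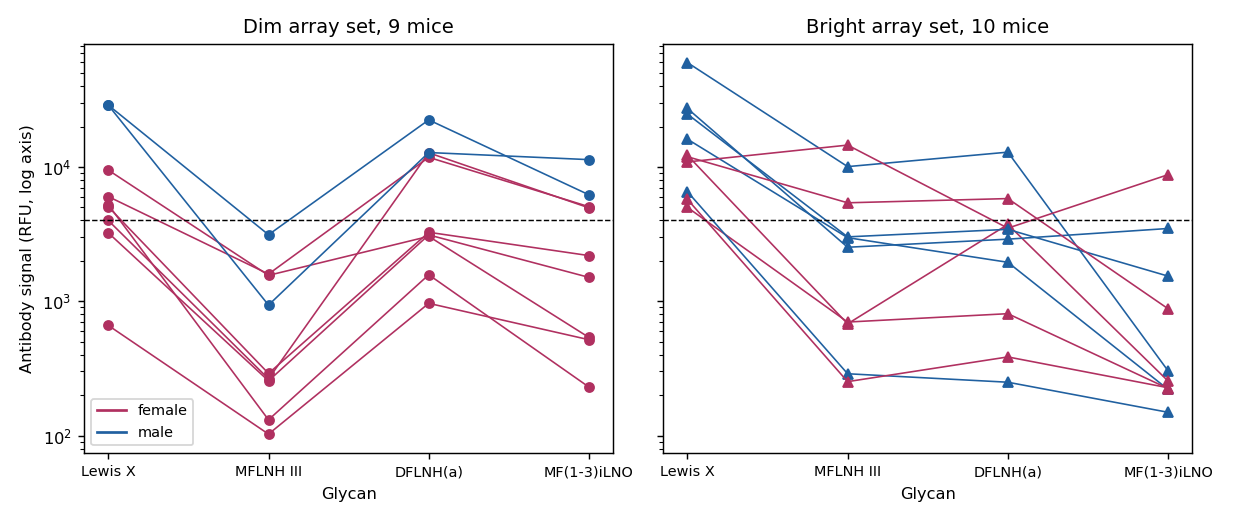
Signal in RFU (log axis) on Lewis X and the 3 milk oligosaccharides, with 1 line per mouse, coloured by sex, in the dimmer (left) and brighter (right) array sets. The dashed line is 4000 RFU. On the left, the lines rise from MFLNH III to DFLNH (a) in 9 of 9 mice, and on the right they run nearly level on average.

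Lewis X on a milk core gave less signal than on the short spacer. MFLNH III was dimmer than Lewis X by 3.19 (interval 2.52 to 3.84) in 18 of 19 mice (adjusted p = 2.42e-05), although its core and its spacer both differ. The exception was mouse BALB/c-90, with 14545 RFU on MFLNH III and 10895 RFU on Lewis X. In that mouse the spots overlapped, from 4396 to 27600 RFU on MFLNH III and from 5284 to 50544 RFU on Lewis X. DFLNH (a) was brighter than MFLNH I, which lacks the α1-3 fucose, by 2.58 (interval 1.65 to 3.51, 18 of 19 mice, adjusted p = 2.42e-05), and this held in both sets of arrays, by 3.54 and 1.71. MFLNH I had 460.5 ± 230.5 RFU, with binding in 0 of 19 mice.

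The α1-2 fucose on the 3-branch is what DFLNH (a) has beyond MFLNH III. Over all mice DFLNH (a) was brighter than MFLNH III by 1.64 (interval 0.68 to 2.62, 16 of 19 mice, adjusted p = 0.0024). The difference was 3.33 on the dimmer arrays, in 9 of 9 mice (exact sign-flip permutation test, adjusted p = 0.0071), and 0.13 on the brighter arrays, in 7 of 10 mice (adjusted p = 0.67). TFLNH, with an α1-4 fucose added to the same branch, was dimmer than DFLNH (a) by 1.62 (interval 0.45 to 2.81, 14 of 19 mice, adjusted p = 0.010), again with 3.31 on the dimmer and 0.11 on the brighter arrays. TFLNH was nevertheless bound in 6 of 19 mice, up to 26555 RFU.
Between MF(1-3)iLNO and MFLNH III the mean difference over all mice was 0.04 (interval -1.17 to 1.24, adjusted p = 0.95), which joins opposite differences in the array sets. MF(1-3)iLNO was the brighter by 1.95 on the dimmer arrays, in 8 of 9 mice (exact sign-flip permutation test, adjusted p = 0.021), and the dimmer by 1.68 on the brighter arrays, in 9 of 10 mice (adjusted p = 0.0092). Whether the sets differ in these 3 pairs was not tested, since the sets were made from the values.

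The sexes were compared with limma on log2 RFU over all 419 compounds, with p-values adjusted over all of them. Of the 10 glycans, 1 was lower in females, Lewis X, against 1.43% of all compounds, and 0 of 10 were higher in females, against 0.239%. Lewis X in the 7 males read 6551, 16108, 24766, 27274, 28854, 28873 and 59869 RFU, and in the 12 females it ran from 661 to 12221 RFU with a median of 5486 RFU. The groups overlapped only through male BALB/c-107, the lowest male, which lay below 4 females, while the other 6 males lay above all 12 females. Lewis X was bound in 9 of 12 females and 7 of 7 males, and the females under the threshold were all on dimmer arrays. On the log2 scale the mean of females minus that of males was -2.11 (interval -3.18 to -1.03, limma, adjusted p = 0.046).

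**Figure D5:**
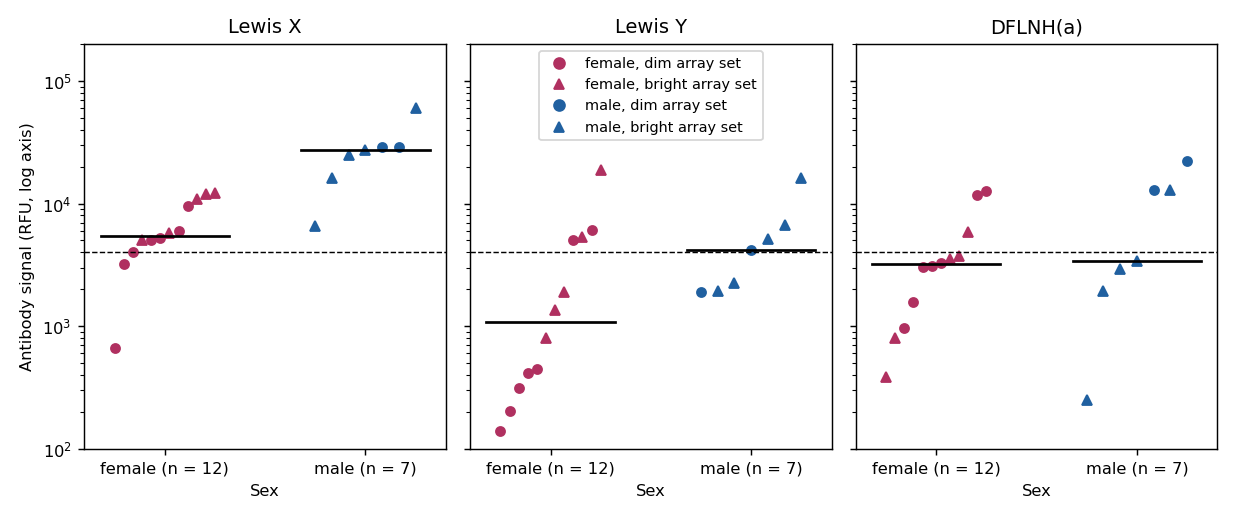
Signal in RFU (log axis) on Lewis X, Lewis Y and DFLNH (a) in 12 females and 7 males. Points are mice, shaped by array set, black bars are medians and the dashed line is 4000 RFU. On Lewis X, 6 of the 7 males lie above all females, while on Lewis Y and DFLNH (a) the sexes overlap over most of their range.

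This call was close to the threshold. With the array set as a term the difference was -1.92 (interval -3.01 to -0.83, limma, adjusted p = 0.088), and with mice permuted within the sets it was the same size (exact permutation test, adjusted p = 0.062). It was -2.90 on the dimmer arrays (7 females and 2 males, limma, adjusted p = 0.17) and -1.31 on the brighter arrays (5 and 5, adjusted p = 0.67). After quantile normalization it was -1.24 (adjusted p = 0.50). Leaving out 1 mouse at a time, the adjusted p ran from 0.014 to 0.12, and it stayed under 0.05 without BALB/c-42, BALB/c-44/45, BALB/c-65, BALB/c-87, BALB/c-90 or BALB/c-107 and missed it without any of the other 13 mice. Over all compounds the median difference between the sexes was -0.75, and 91.9% of compounds had a lower mean in females. Within mice, Lewis X ranked 18 to 89 of the 419 compounds in females, with a median of 38.5, and 13 to 52 in males, with a median of 16.

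For the other 9 glycans the sexes were not told apart, with adjusted p from 0.31 to 0.84. All 9 had a lower mean in females as measured, from -0.18 for the β-fucose analog to -1.74 for Lewis Y, beside the -0.75 of all compounds, but the sign turned for 4 of them after quantile normalization and for 5 with arrays centred on their medians. Lewis Y had a median of 1083 ± 845 RFU in females and 4193 ± 2271 RFU in males, and its interval ran from -3.55 to 0.06 (limma, adjusted p = 0.31). MFLNH III had 484.5 ± 293 RFU and 2975 ± 451 RFU, with an interval of -3.54 to 0.15 (adjusted p = 0.33). These intervals are wide enough to hold both no difference and one as large as that of Lewis X. DFLNH (a), with medians of 3191 and 3431 RFU, differed by -0.57 (interval -2.25 to 1.10, adjusted p = 0.64).

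A difference within an array is free of the overall level of that array only where both signals scale with it, which a signal at background need not do. Lewis A was at or below buffer in 16 of 19 mice. With this limit, the 29 pairs were also compared between the sexes with an exact permutation test over 50388 assignments, two-sided, adjusted over the 29 pairs. The margin of Lewis X over Lewis A was 4.84 in 12 females and 6.64 in 7 males, which differed by -1.79 and passed (exact permutation test, adjusted p = 0.028). Within array sets, over 9072 assignments, this pair and that of Lewis X and N-acetyllactosamine passed, at -1.79 and -2.17 (exact permutation test, adjusted p = 0.029 for both). With signals raised to the buffer, 0 of 29 pairs passed, and the sexes then differed by -0.98 for Lewis X over Lewis A (exact permutation test, adjusted p = 0.57). The margin of Lewis X over Lewis Y was 2.14 in females and 2.51 in males, which differed by -0.36 (exact permutation test, adjusted p = 0.84).

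Whether mice with more signal on Lewis X also had more on the other 9 glycans was tested within each array set, since the sets differ in level, which gave 18 relations. Of the 18, 0 passed after adjustment, by Pearson or Spearman correlation, while 5 had an unadjusted p under 0.05 by Pearson and 1 by Spearman (permutation tests). The strongest were DFLNH (a) on the 10 brighter arrays (r = 0.80, adjusted p = 0.070, rho = 0.60, adjusted p = 0.39, permutation tests), where r was 0.70 without the 2 mice farthest from the median of Lewis X, and MFLNH III on the 9 dimmer arrays (r = 0.79, adjusted p = 0.070, rho = 0.83, adjusted p = 0.15, exact permutation tests), where r fell to 0.57. Lewis Y gave r = 0.69 on the dimmer arrays (adjusted p = 0.13, exact permutation test, rho = 0.68, adjusted p = 0.39, and r = 0.47 without those 2 mice). On the brighter arrays the sign for Lewis Y was the opposite (r = -0.32, adjusted p = 0.55, rho = -0.20, adjusted p = 0.84, permutation tests). With 9 and 10 mice a set, weak relations could not be detected, and even an r of 0.80 did not pass after adjustment.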

How the data were processed

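Serum of BALB/c mice was tested on printed glycan arrays with 1 dye, Cy5. The authors used ScanArray Express 4.00 and deposited, for every spot, its mean pixel intensity on a linear scale, the local background, a flag and the percent of saturated pixels. No scaling between arrays was applied. Structures and compound numbers came from the authors' table of the series. Its pooled medians over animals and its shares of positive animals, also deposited, were not used.

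From the 6 replicate spots the median was taken as RFU, and was set to at least 100 before log2. Levels and pairs were computed over all mice, and the sexes were compared with limma 3.58.1 (R 4.3.3), with a mean-dependent prior variance. The rest was done in Python 3.11.15 with scipy 1.17.1, numpy 2.4.6, matplotlib 3.10.9 and pandas 2.3.3. P-values were adjusted by the Benjamini-Hochberg method. Intervals of pair differences hold the shifts that the sign-flip test does not reject. Arrays share layout, and precision is limited by their number. Spots flagged as not found, 3.83 to 51.3% of the spots listed for an array, were kept. The limma and permutation steps were tested on simulated data.

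All 10 members, and of other compounds the partners of the pairs, are named. Members, pairs and lists were chosen with earlier results of these data known. Alternatives covered spot means, background subtraction, thresholds of 2000 and 8000 RFU, log2(RFU + 500), quantile normalization, centring, buffer, array sets and single mice.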

Additional observations from a re-analysis of the deposited data

Results flagged for a closer look

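The difference between Lewis X and Lewis A within mice was -1.79 on the log2 scale between females and males (4.84 in 12 females, 6.64 in 7 males), and was picked out because the test of the difference itself passed among the 29 pairs (exact permutation test, adjusted p = 0.028). On leaving out 1 mouse at a time it ran from -1.99 to -1.55, and passed on leaving out 15 of the 19 mice. Without BALB/c-48, BALB/c-56, BALB/c-82 or BALB/c-104, all males, it did not (highest adjusted p = 0.10, exact permutation test). The part that the buffer level plays in this difference was not tested beyond the values given for signals raised to the buffer.

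In the 7 males, the highest and the lowest value of each of the 10 glycans were set against the spread of the others, and 0 of these 10 groups held a mouse that stood far from the rest by Dixon's test. The 12 females were not compared in this way.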

How the results depend on the processing

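At a threshold of 2000 RFU in place of 4000, 2 glycans in place of 1 were bound in most mice and 2 had a median over mice at or above it, while the other alternatives for the levels, and leaving out each mouse, left these counts at 1. The median of LeY(hexa) moved by more than 1.5 times, to 567 RFU, on leaving out any of 9 mice. The number of pairs past the threshold stayed within 1.5 times of 26 under all alternatives. Of the pair differences that changed sign, MF(1-3)iLNO minus MFLNH III was -0.089 with neither copy of the identical array, -1.68 on the brighter arrays, and -0.19 to 0.32 on leaving out 1 mouse at a time. LeY(hexa) minus Leb(hexa) was -0.27 on the dimmer arrays, where LeY(hexa) lay below the buffer in each mouse.

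The sex difference of Lewis X kept its sign in every alternative and lost its call in 9 of them, where 0 glycans of the family were called. It was -1.68 with the mean of the spots (adjusted p = 0.075), -2.20 after background subtraction (0.065), -2.11 with signals raised to the buffer (0.065), -1.24 after quantile normalization, -1.14 with arrays centred on their median (0.58), -2.90 on the dimmer and -1.31 on the brighter arrays, and -1.92 with the array set as a term or with mice permuted within sets. On leaving out 1 mouse at a time it ran from -2.41 to -1.83, with 0 to 1 glycans called. The call held with log2(RFU + 500), with both or neither copy of the identical array, with compounds above buffer only and in the exact permutation test over all 419 compounds (adjusted p = 0.025 to 0.036). Of the glycans that were not called, the difference turned positive after quantile normalization for Fucα1-3GlcNAc (0.26), the β-fucose analog (0.59), DFLNH (a) (0.22) and MF(1-3)iLNO (0.57). With centred arrays it did so for Fucα1-3GlcNAc (0.27), αGalLeX (0.043), the β-fucose analog (0.79), DFLNH (a) (0.39) and MF(1-3)iLNO (0.61). On the dimmer arrays it was 0.52 for αGalNAcLeX and 0.56 for the β-fucose analog, on the brighter arrays 0.18 for MF(1-3)iLNO, and 0.13 for the β-fucose analog with the array set as a term or with mice permuted within sets. On leaving out 1 mouse it ran from -0.50 to 0.054 for the β-fucose analog and from -0.85 to 0.19 for MF(1-3)iLNO. Quantile normalization and centring moved the median of all compounds from -0.75 to 0.04 and 0.21.

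Of the pairs compared between the sexes, 0 passed with signals raised to the buffer and 2 with mice permuted within sets. The sign turned for αGalNAcLeX minus αGalLeX in the first (0.25) and for Fucα1-3GlcNAc minus its β-isomer in the second (-0.10). The cause of these changes was not tested. Females could not be paired with males because the replicate numbers only name the mice of each sex in order, and nothing in the labels ties a female to a male.

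Signals at the level of the buffer limit what can be told about the dim glycans, and 19 sera of 1 strain, at 1 dilution and 1 age, limit all comparisons.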

Other observations

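The pairs of glycans within the family, and of its members with their partners, were also correlated over mice within each array set, a choice made after seeing the data, which gave 126 relations. Of these, 0 passed after adjustment by Pearson correlation and 1 by Spearman correlation, with 21 at an unadjusted p under 0.05 by each. That relation was between DFLNH (a) and MF(1-3)iLNO, the milk oligosaccharides that BALB/c-20, BALB/c-42, BALB/c-56 and BALB/c-82 bound together, on the 9 dimmer arrays (rho = 0.95, adjusted p = 0.044, r = 0.90, adjusted p = 0.0995, exact permutation tests). With log2 RFU minus the array median it did not pass by either (rho = 0.70, adjusted p = 0.43, r = 0.84, adjusted p = 0.14, exact permutation tests). The 1 of the 126 that then passed was another, between LeY(hexa) and Leb(hexa) on the same 9 arrays (rho = 0.95, adjusted p = 0.044, exact permutation test), where as measured rho was 0.70 (adjusted p = 0.29, exact permutation test). On these 9 arrays LeY(hexa) lay below the buffer in each mouse, and Leb(hexa) was at or below buffer in 18 of 19 mice over both sets. The same array median was taken from both signals, so this relation cannot be told apart from a shared background level. For DFLNH (a) and MF(1-3)iLNO as measured, without the 2 mice farthest from the median of DFLNH (a), r was 0.88. On the 10 brighter arrays r was 0.43 (adjusted p = 0.57) and rho 0.60 (adjusted p = 0.35, permutation tests), and r was 0.13 without 2 mice. The difference between the sets was not tested.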
